A study of Mus musculus with 6 samples.

Results

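The mRNAs of the cytoplasmic ribosomal proteins were followed across 6 stromal populations sorted from the mouse omentum. Members were taken by gene symbol, as all *Rpl*, *Rplp* and *Rps* genes that carry a plain number with or without a final a or x, together with *Rpsa*, *Rpl36al* and *Rps27l*, and the kinases of the *Rps6ka* group were left out. This gave 78 genes among 23352 in the table, of which 47 encode proteins of the large (60S) subunit and 31 encode proteins of the small (40S) subunit. The rule used names only, so no expression value chose a member. All 78 had a mean of at least 1 FPKM over the libraries, and 72 had a mean of at least 100 FPKM (fragments per kilobase of transcript and per unit of sequencing depth, a level that is corrected for transcript length).

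All cells came from WT mice of strain C57BL/6, and the age of the mice is not given in the sources used here. The populations were gated on CD45- cells by CD140a (*Pdgfra*), a fibroblast receptor, by CD105 (*Eng*, endoglin), and by a fluorescent substrate of aldehyde dehydrogenase (ALDH), the enzyme class that makes retinoic acid. Among CD140a+CD105+ cells, P1 had the highest ALDH activity, P2 an intermediate and P3 a low one. Among CD140a+CD105- cells, P4 was the intermediate and P5 the low one. P6 was CD140a-low and ALDH positive. Each population had 1 library, with no replicate, so no test between populations was possible, and every difference below describes these libraries. The pooling of mice behind a library is not given in the sources used here.

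The ribosome reads mRNA with its small subunit and joins amino acids with its large subunit, and each subunit holds a fixed set of proteins around ribosomal RNA. Ribosomal protein mRNAs are among the most abundant in a mammalian cell. They typically begin with a C followed by a run of pyrimidines, the 5′ terminal oligopyrimidine (TOP) tract, through which growth signals acting on mTOR and LARP1 set how much of these mRNAs is translated and kept. MYC is known to raise transcription of genes for ribosome production.

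The start regions of 10 members are shown, so that the pyrimidine tract can be seen where it is long. They include genes that differed most and least across the populations, but are too few to compare these groups. Each is the 30 bases around a RefSeq start (build GRCm38.p6), read 5′ to 3′ on the strand of the gene, with runs of at least 5 C or T in capitals. GENCODE, another annotation, has its nearest start outside these 30 bases for *Rps15* (22 bases away), *Rpl28* (25), *Rpl38* (29) and *Rpl36al* (16). A window without a tract therefore does not show that the mRNA lacks one. *Rpl35* (chr2:39005117-39005146, minus strand) and *Rpl28* (chr7:4792950-4792979, plus strand) were chosen for their pyrimidine runs, the longest of 18 and 11 bases. Other members, such as *Rpl13a* with 13 bases, had longer runs than *Rpl28*. *Rps12* (chr10:23787195-23787224, minus strand), *Rpl13a* (chr7:45128731-45128760, minus strand), *Rps15* (chr10:80292416-80292445, plus strand) and *Rpl13* (chr8:123102335-123102364, plus strand) were among the abundant members with the largest difference between CD105- and CD105+ cells. *Rps27l* (chr9:66946071-66946100, plus strand), *Rpl36al* (chr12:69184053-69184082, minus strand), *Rpl38* (chr11:114668565-114668594, plus strand) and *Rpl41* (chr10:128549154-128549183, minus strand) were not lower in one or both of the contrasts described below.
Rpl35: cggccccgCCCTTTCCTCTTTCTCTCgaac
Rpl28: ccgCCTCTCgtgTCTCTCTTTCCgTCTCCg
Rps12: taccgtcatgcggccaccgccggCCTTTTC
Rpl13a: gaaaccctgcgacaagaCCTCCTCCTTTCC
Rps15: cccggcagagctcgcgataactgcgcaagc
Rpl13: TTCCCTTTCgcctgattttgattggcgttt
Rps27l: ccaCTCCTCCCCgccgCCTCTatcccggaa
Rpl36al: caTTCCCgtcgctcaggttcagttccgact
Rpl38: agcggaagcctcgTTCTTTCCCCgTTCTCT
Rpl41: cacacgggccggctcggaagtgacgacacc

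A RefSeq start region was found for 58 members and for 27025 genes in all. Within 50 bases of the start, the letters CTTTC on the sense strand occurred in 29 of the 58 members (50%) and in 12.7% of all start regions. On the antisense strand CTTTC occurred in 10.3% of the members and 11.9% of all. A sense run of at least 8 C or T was present in 81.0% of the members against 35.6% of all, and an antisense run in 25.9% against 37.3%, so the excess over all genes was seen on the sense strand. CCGGAAG, the letters bound by ETS factors, searched on both strands, occurred in 20.7% of the members and 5.44% of all, and in 11.9% of the start regions of genes that averaged at least 1 FPKM. CTTTC runs overlap pyrimidine runs by construction, and RefSeq and GENCODE placed the start at the same base for 18 of the members. In log2 of P4 and P5 over P1 to P3, the 29 members with CTTTC had a median of -0.31 and the 29 without it -0.26.

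The CD105 and CD140a gates of the sort were visible in the RNA. *Eng* was at 52.4, 52.2 and 42.6 FPKM in P1, P2 and P3 and at 0.359, 0.231 and 0.728 FPKM in P4, P5 and P6. *Pdgfra* was between 117 and 154 FPKM in P1 to P5 and at 5.36 FPKM in P6. The ALDH gate was seen only in part in *Aldh1a2*, an ALDH gene of retinoic acid synthesis. It was at 469, 78.8, 134, 285, 145 and 209 FPKM in P1 to P6. P1 was highest and P4 was above P5, but P2 was below P3. The depth estimated from the smallest FPKM steps was 53.4 to 61.8 M reads in P1 to P5 and 37.0 M reads in P6. At that depth, counting error was at most 3.20% for any value of those 72 abundant members. That error covers counting alone and is no substitute for replicates.

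The ribosomal protein mRNAs were highest in the CD105+ cells and were lower, step by step, in CD105- and CD140a-low cells. Their share of the summed FPKM of all genes was 11.6%, 11.5% and 10.4% in P1, P2 and P3, then 9.16% and 8.65% in P4 and P5, and 8.24% in P6. Relative to P1, the median member stood at 96.7% and 85.7% in P2 and P3, at 79.6% and 73.4% in P4 and P5, and at 66.6% in P6. The median of all genes that averaged at least 1 FPKM moved the other way, to between 104% and 114% of its value in P1. Because FPKM is a share of each library, a lower value cannot be told apart from a higher output of other mRNAs, and fewer cells of a type cannot be told apart from less RNA per cell.

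In the values as deposited, highest levels were found in P1 for 53 of the 78 members and in P2 for 19. P1 or P2 was thus the highest library for 72 members, against 23.3% of the 12053 genes that averaged at least 1 FPKM, which are the background below. P6 was the lowest library for 63 members (background 26.0%), P5 for 14 and P3 for 1. The strict order from P1 down to P6 held for 34 members and for 3.39% of the background. Allowing P1 and P2 to change places raised this to 50 members, against 4.77%. Which of P1 and P2 was higher depended on the scaling, since 42 members were lower and 30 higher in P1 after quantile normalization. The number of members among the 100 most abundant genes was 35, 38, 31, 28, 28 and 23 in P1 to P6. Among the 647 genes that averaged at least 100 FPKM, members included, P1 or P2 was highest in 45.7%, P6 lowest in 49.1% and the strict order held in 12.4%.

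**Figure D1:**
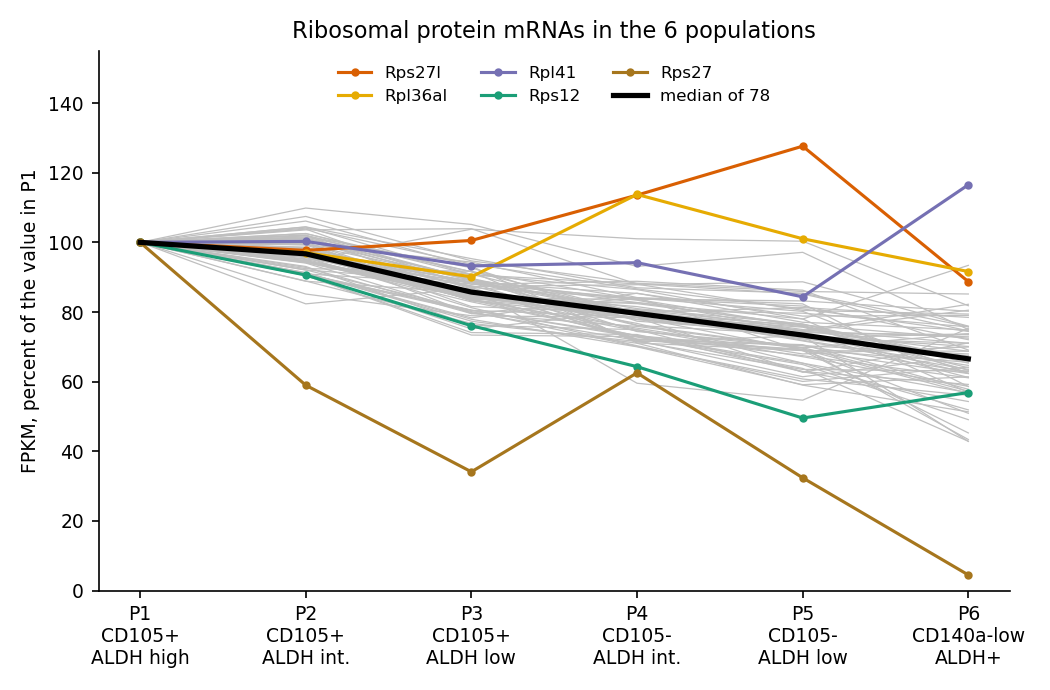
FPKM of each ribosomal protein gene in the 6 populations (x axis), as percent of its value in P1 (y axis, linear); 1 library per point, grey lines for members, colours for 5 named members, black for the median of all 78. *Rpl26*, at 297% of its P1 value in P5 and at 0.000187 FPKM in P6, is left out of the lines. The median goes from 96.7% in P2 to 66.6% in P6. *Rps27l* and *Rpl36al* are above their P1 value in P4 and P5 and *Rpl41* in P6 (these directions turn when libraries are divided by *Gapdh*).

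The CD105 gate can be read at the same ALDH level of the sort in 2 pairs of libraries that share no sample. *Aldh1a2* mRNA still differed in the first pair, with 78.8 FPKM in P2 and 285 FPKM in P4, and less in the second, with 134 FPKM in P3 and 145 FPKM in P5. At intermediate ALDH activity, P4 against P2, the median log2 difference was -0.29 (interquartile range over members -0.37 to -0.22), and 51 members were lower by at least 1.2 times against 16.6% of the background. No member was higher by that fold, against 26.9% of the background. At low ALDH activity, P5 against P3, the median was -0.22 (-0.32 to -0.14), with 33 members lower by 1.2 times against 18.5% of the background, and 2 higher against 27.9%. The median of all background genes was 0.08 in the first pair and 0.09 in the second, so the members lay 0.37 and 0.31 log2 units below it. Quantile normalization brought the members' medians to -0.20 and -0.13, and they then lay 0.17 and 0.15 log2 units below the background median. It also lowered both counts of lower members, as given in the last section. In both pairs together, P4 below P2 and P5 below P3 held for 72 members against 29.8% of the background and 45.9% of the 647 abundant genes. A lower value by 1.2 times was found in 28.3% of the abundant genes in the first pair and 29.4% in the second.

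The differences were small but even. The interquartile range of the members in P4 against P2 spanned 0.15 log2 units and that of the background genes 0.41. Such a narrow range was not particular to the members. It was 0.12 for the initiation factors, 0.13 for the 20S proteasome and 0.18 for the mitochondrial ribosomal proteins described below. For the ribosome biogenesis factors it was 0.22. Only 1 member (*Rpl26*) was lower by as much as 1.5 times. Abundant genes as a class did not share the shift. The 575 other genes that averaged at least 100 FPKM had a median of 0.06 in each pair. Among these, the 187 with transcripts under 1000 nt, a length like that of most ribosomal protein mRNAs, had medians of 0.16 and 0.13.

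**Figure D2:**
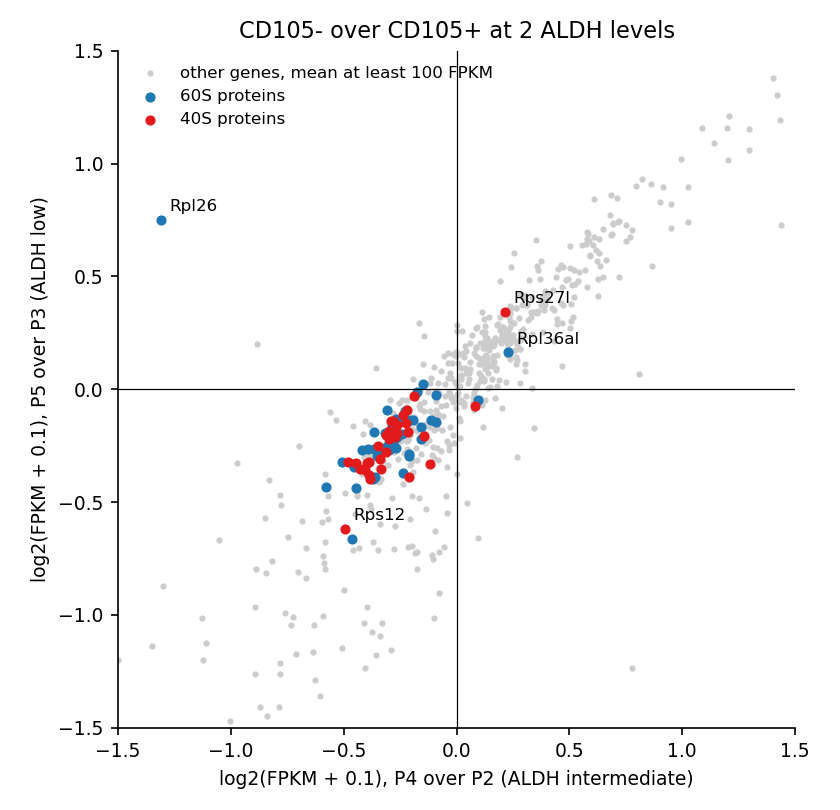
Log2 difference of FPKM + 0.1 for P4 over P2 (x axis) and P5 over P3 (y axis), 1 point per gene, 60S members in blue, 40S members in red and the other genes that averaged at least 100 FPKM in grey (61 of these 575 lie outside the axes). The members gather in the lower left quadrant around -0.29 and -0.22, with *Rps27l* and *Rpl36al* in the upper right one.

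Members were also higher at higher ALDH activity on both sides of the CD105 gate in the values as deposited, with smaller medians, but not on the CD105- side after quantile normalization. P2 was above P3 with a median log2 difference of 0.18, and P4 was above P5 with 0.11. After quantile normalization the latter was 0.00706, with 33 members lower and 41 higher in P4. As deposited, both orders held for 69 members against 29.8% of the background and 51.5% of the abundant genes. P1 and P2 were close, with a median of 0.05 as deposited, and their order depended on the scaling. A common sum of FPKM gave 33 members lower and 45 higher in P1 than in P2. Quantile normalization gave 42 lower and 30 higher, with a median of -0.00923. The median of ratios and division by *Gapdh* gave 72 and 64 members higher in P1. These comparisons share P2 and P4 with those of the CD105 gate.

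With both CD105- populations set against the 3 CD105+ ones, the median log2 difference was -0.30. In this contrast 48 members were lower by at least 1.2 times against 17.5% of the background. That count fell after quantile normalization, as given in the last section. For 67 members P4 and P5 both lay below P1, P2 and P3, with no overlap, again against 17.5% of the background. Among the 647 abundant genes these shares were 32.3% and 33.5%. Large and small subunits were alike, with medians of -0.29 over the 47 members of the 60S and -0.34 over the 31 members of the 40S.

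*Rps12*, a 40S protein known in cell competition, had the largest difference among the abundant members. It was at 1567, 1420 and 1192 FPKM in P1, P2 and P3 and at 1008, 777 and 892 FPKM in P4, P5 and P6. The log2 difference of P4 and P5 against P1 to P3 was -0.64, and every CD105+ library lay above every other one.

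*Rplp1*, an acidic protein of the stalk that recruits elongation factors, was the most abundant member. It was at 1751, 1675, 1422, 1231, 1051 and 1123 FPKM in P1 to P6, a log2 difference of -0.50 for the CD105 contrast. The stalk base *Rplp0* (714, 729, 601, 597, 542 and 452 FPKM) and the second acidic protein *Rplp2* (660, 610, 605, 527, 493 and 542 FPKM) were lower by less, with -0.26 and -0.29. For all stalk proteins the CD105+ libraries stood above the others without overlap, with P3 and P4 close together for *Rplp0*.

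*Rps15*, which sits near the decoding site, had values of 1133, 1034, 883, 793, 670 and 696 FPKM and a log2 difference of -0.47. *Rpl23a*, at the exit of the peptide tunnel, went from 1066 FPKM in P1 to 719 FPKM in P6. *Rps21*, a small 40S protein, went from 811 to 576 FPKM. All of these were in the order P1, P2, P3 before P4, as most members were.

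*Rpl5* and *Rpl11* form a particle with 5S rRNA, and outside the ribosome they bind MDM2 and thereby raise p53. *Rpl5* was at 288, 288, 242, 237, 220 and 192 FPKM and *Rpl11* at 737, 702, 652, 629, 581 and 582 FPKM. Their log2 differences for the CD105 contrast, -0.25 and -0.20, were close to or smaller than the median member. *Rpsa*, which also serves as a laminin receptor, was at 377, 382, 332, 335, 325 and 261 FPKM, so that P3 and P4 overlapped.

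The remaining 11 members did not have both CD105- libraries below all CD105+ ones. In *Rpl7*, *Rpl10*, *Rpl26*, *Rpl34*, *Rpl38*, *Rpl41*, *Rps26*, *Rps27* and *Rpsa* the libraries overlapped, and in *Rps27l* and *Rpl36al* both CD105- libraries were the higher ones in the values as deposited. Among the 11, 4 had a higher mean in P4 and P5. *Rps27l*, a paralog of *Rps27* known as a p53 target, was at 99.5, 97.2 and 100.1 FPKM in P1, P2 and P3, at 113 and 127 FPKM in P4 and P5, and at 88.3 FPKM in P6. Its log2 difference was 0.28, and both CD105- libraries were above the 3 CD105+ ones, but the sign turned to -0.25 after division by *Gapdh*.

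*Rpl36al*, an autosomal copy of the X-linked *Rpl36a*, was at 189, 184, 171, 215, 191 and 173 FPKM. Its log2 difference was 0.17, and it turned to -0.35 after division by *Gapdh*. *Rpl36a* itself was at 447, 463, 464, 393, 359 and 355 FPKM, a difference of -0.28 like that of the family. The sum of both rows differed by -0.14. The 2 rows thus went apart across the CD105 gate.

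*Rpl38*, needed for translation of Hox mRNAs in the embryo, was at 975, 924, 1012, 985, 979 and 798 FPKM. Its log2 difference of 0.02 turned below 0 after the median of ratios and after division by *Gapdh*. *Rpl10*, among the last proteins added to the 60S, was at 982, 955, 858, 862, 871 and 746 FPKM, and its log2 difference of -0.10 became 0.01 after quantile normalization. The fourth member with a higher mean was *Rpl26*, described with the pseudogene rows.

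P6 stood lowest. Against P1 to P3 the median log2 difference was -0.49 (interquartile range -0.67 to -0.37), and 68 members were lower by at least 1.2 times against 24.5% of the background and 46.2% of the abundant genes. The background median was 0.12, and that of the 575 other abundant genes was -0.12. The 40S members had a median of -0.55 and the 60S members -0.46. Against P4 and P5 the distance was shorter, with a median of -0.20 and 29 members lower by 1.2 times, 37.2% against 25.3% of the background. The 575 other abundant genes had a median of -0.21 there, close to that of the members. Among the 647 abundant genes 44.0% were lower by that fold, so this last count was not above that of abundant genes. After division by *Gapdh* the median of P6 against P4 and P5 was 0.01.

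The widest gaps to P6 among abundant members included *Rpl17* and *Rpl9*. *Rpl17*, at the rim of the peptide tunnel exit, was at 558, 566 and 511 FPKM in P1 to P3, at 398 and 408 FPKM in P4 and P5, and at 239 FPKM in P6, a log2 difference of -1.19 against P1 to P3. *Rpl9* was at 648, 634, 542, 483, 451 and 281 FPKM, a difference of -1.11. In both, P6 was clear of every other library by more than the distance between P4 and P5. Many reads of *Rpl17* and *Rpl9* could also come from other gene copies, since 77.9% and 91.1% of their windows of 76 nt occur in other annotated genes.

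*Rpl41*, the shortest ribosomal protein, went the other way. It was at 1150, 1153 and 1072 FPKM in P1 to P3, at 1083 and 970 FPKM in P4 and P5, and at 1340 FPKM in P6, the highest of the 6 libraries. In the values as deposited it was the only member with a higher value in P6 than the mean of P1 to P3, with a log2 difference of 0.25 that became -0.06 after division by *Gapdh*. *Rpl37a* was at 715, 690, 649, 618, 557 and 667 FPKM, with P6 between P2 and P3, and its log2 difference against P1 to P3 was above 0 under 2 of the other scalings (at most 0.19). After quantile normalization 6 members were higher in P6, among them *Rpl4*, *Rpl23*, *Rps6* and *Rpl36al*.

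Markers of other cells also differed between the populations, but not all in the order of the members. Median levels of mesothelial markers rose from P1 to P6, and those of acinar genes were higher in P2, P4 and P6 than in the other libraries. Adipocyte and leukocyte markers were lower in P4 and P5 than in P1 to P3, with median log2 differences of -1.45 over 8 genes and -0.92 over 3. The 9 mesothelial markers found (*Msln*, keratins and others) had a median of 0.339, 0.55, 1.37, 14.04, 14.2 and 171 FPKM in P1 to P6, and together took 0.0177% of the summed FPKM in P1 and 0.701% in P6. The 20 pancreatic acinar genes had a median of 0.104, 8.81, 0.697, 48.1, 5.09 and 69.5 FPKM, with *Try4* at 0.251, 13.2, 0.947, 83.5, 6.52 and 103 FPKM, and took at most 0.572% of the sum, in P6. After both lists were removed and the libraries were set to a common sum, the median log2 difference was -0.32 for P4 against P2, -0.24 for P5 against P3 and -0.42 for P6 against P1 to P3, and the count lower by 1.2 times in P6 against P4 and P5 went from 29 to 17. A common sum without the removal gave nearly the same medians, -0.32, -0.24 and -0.44, and its count is given in the last section. Adipocyte markers had a median of 0.31 to 2.29 FPKM in P1 to P5 and 14.6 FPKM in P6, and the leukocyte and endothelial lists took at most 0.0110% and 0.0297% of the sum. The 9 fibroblast markers took 2.29% to 3.42%, but their median was 1263 FPKM in P1 and 125 FPKM in P6. Against P1 to P3, 6 of them were lower by 1.2 times and 2 higher in P4 and P5 (median log2 difference -0.51). In P6, 5 were lower and 3 higher (median -0.35). The background shares of lower and higher genes were 17.5% and 30.0% in P4 and P5, and 24.5% and 38.8% in P6. *Col3a1*, a fibroblast collagen in this list, is listed at 0 in P2 and was between 2100 and 3390 FPKM in the other libraries. The removal took away marker rows only and left any ribosomal protein mRNA of those cells in place, so it cannot measure their part. The part of other cells, or of the fibroblast markers' shift, in the levels of the members was not tested.

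Ribosomal proteins that the name rule leaves out were lower too. *Fau*, which encodes a ribosomal protein fused to a ubiquitin-like protein, and *Rps3a1* belong to the same particles. Of 7 such genes that averaged at least 1 FPKM, 5 were lower by 1.2 times in P4 and P5 against P1 to P3 (background 17.5%). In P6 against P1 to P3 all 7 were lower by that fold (background 24.5%). None of the 7 was higher in either contrast. Their medians were -0.29 and -0.57. *Rpl22l1*, a paralog of *Rpl22*, went from 219 FPKM in P1 to 137 FPKM in P6.

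The proteins of the mitochondrial ribosome, which is built from separate nuclear genes, did not share the pattern. Of 76 genes, 2 were lower and 1 was higher by 1.2 times in P4 and P5 against P1 to P3, with a median of 0.07, where 17.5% and 30.0% of the background were. In P6 against P1 to P3, 16 were lower and 14 higher (background 24.5% and 38.8%), with a median of 0.02. Under the median of ratios these medians were -0.05 and -0.11, so the sign depends on the scaling.

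The 20 listed TOP mRNAs outside the family had medians of -0.12 in P4 and P5 and -0.17 in P6, both against P1 to P3, and 6 were lower by 1.2 times in each. In P4 and P5 none was higher by that fold, and in P6 3 were. The background shares of lower genes were 17.5% and 24.5% in these contrasts, and 32.3% and 46.2% among the abundant genes. *Tpt1*, a growth-related TOP mRNA, was at 2206, 2009, 1745, 1621, 1519 and 1308 FPKM, and *Gnb2l1*, which encodes the 40S scaffold RACK1, was at 436, 459, 375, 352, 336 and 275 FPKM. *Eef1g*, a subunit of the exchange factor of elongation, was at 275, 262, 218, 197, 177 and 147 FPKM. *Eef1a1*, which brings tRNA to the ribosome, was at 3166, 3062, 2504, 2734, 2495 and 2359 FPKM, with P4 above P3. *Npm1* and *Pabpc1*, also TOP mRNAs, did not share the order, with *Npm1* highest in P6 (141 FPKM in P1 and 198 FPKM in P6).

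Of 30 initiation factors, none was lower and 4 were higher by 1.2 times in P4 and P5 against P1 to P3, with a median of 0.09. In that contrast 17.5% of the background was lower and 30.0% higher. Of 35 ribosome biogenesis factors, 1 was lower and 2 were higher, with a median of -0.09 that became -0.21 under the median of ratios and -0.23 after quantile normalization. In P4 against P2, 6 of them were lower and 1 was higher (median -0.18). The 6 were 17.1% of the list, near the 16.6% of the background. In P6 against P1 to P3, 11 were lower and 5 higher (median -0.13). The 11 were 31.4% of the list, against 24.5% of the background. *Rrp1*, the most abundant of this list, was at 53.9 FPKM in P1 and 85.8 FPKM in P5, and *Nop58*, a protein of the snoRNA particles that modify ribosomal RNA, at 27.6 and 26.1 FPKM. The 20 RNA polymerase I subunits and factors had a median of 0.12, and the 14 subunits of the 20S proteasome, another abundant fixed complex, had 0.11. All 4 medians were below 0 after division by *Gapdh*, and the median of ratios gave -0.02 for the initiation factors and -0.01 for the proteasome.

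**Figure D3:**
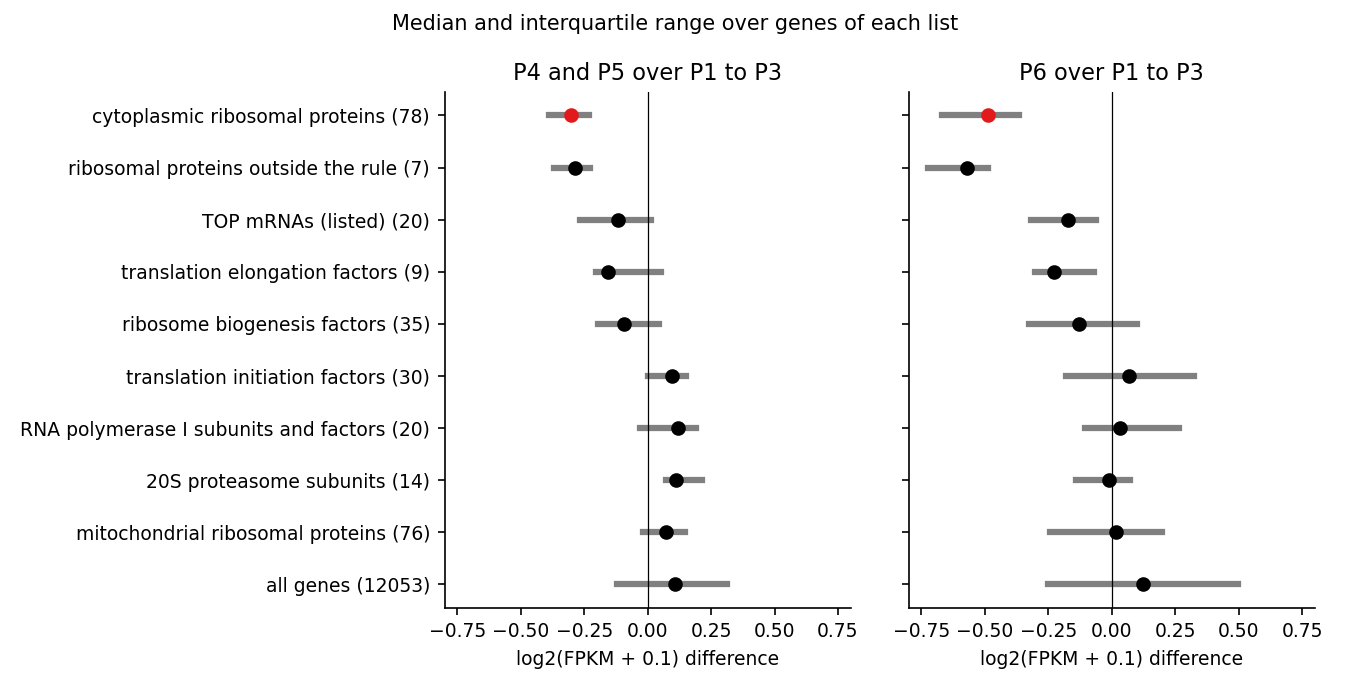
Median (dot) and interquartile range over genes (bar) of the log2 difference of FPKM + 0.1 for P4 and P5 over P1 to P3 (left) and P6 over P1 to P3 (right), for each list, with the number of genes in brackets. The cytoplasmic ribosomal proteins (red) are at -0.30 and -0.49 and the mitochondrial ones at 0.07 and 0.02, medians that turn below 0 under the median of ratios, after division by *Gapdh* and after quantile normalization.

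Among 21 genes for known regulators, *Myc* had the order of the family. It was at 223, 206 and 200 FPKM in P1, P2 and P3, at 106 and 69.9 FPKM in P4 and P5, and at 22.8 FPKM in P6. The CD105+ libraries lay above the rest without overlap, and the distance was wider than for any abundant member. *Mycn* was below 0.3 FPKM in all libraries. The list as a whole had a median of 0.07 in P4 and P5 against P1 to P3. Of 19 genes, 3 were lower and 2 higher by 1.2 times (background 17.5% and 30.0%). An order shared over 6 libraries is a description and does not link *Myc* to the members.

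*Rpl13a* is often used as a reference gene in quantitative PCR. The study used *Rpl13a* in that role for its comparison of tissues. It used *Gapdh* for these sorted populations and for chemokines in whole omenta. *Rpl13a* was at 603, 639, 561, 428, 415 and 376 FPKM in P1 to P6, 1.70 times between the highest and lowest library. *Gapdh* went the other way, with 214, 218, 224, 302, 326 and 270 FPKM, 1.52 times between extremes. The ratio of *Rpl13a* to *Gapdh* was 2.81, 2.93 and 2.51 in the CD105+ populations and 1.42, 1.27 and 1.39 in the others, a span of 2.30 times. *Actb* stayed between 885 and 947 FPKM. The choice of reference therefore moves a relative level between these populations by up to that span.

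**Figure D4:**
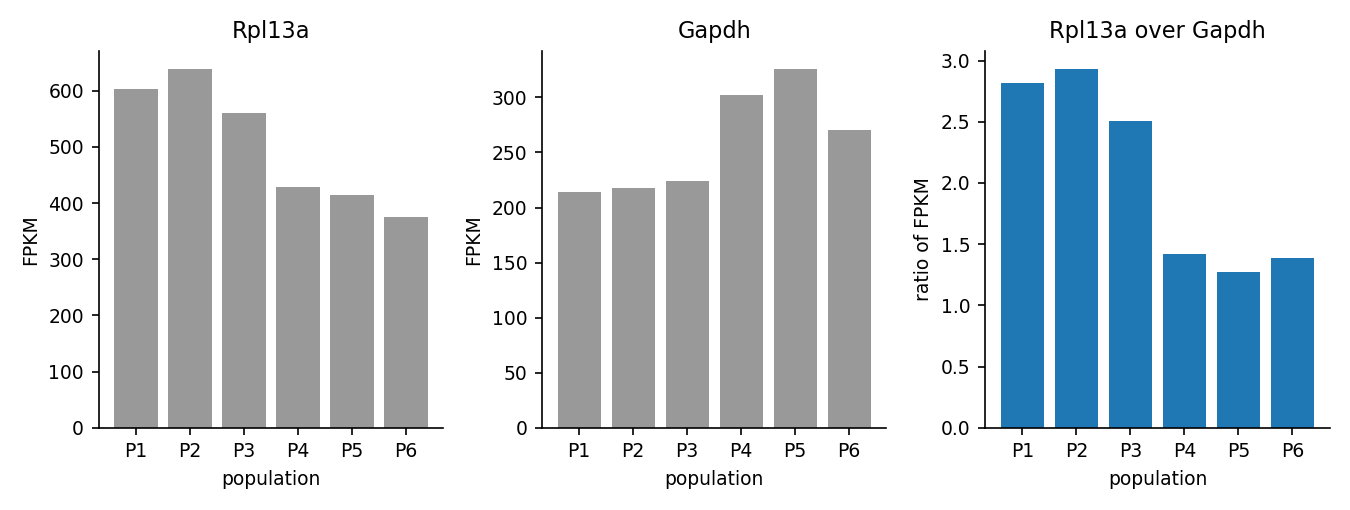
FPKM of *Rpl13a* (left) and *Gapdh* (middle) and their ratio (right) in P1 to P6, bars from 0, 1 library each. The ratio is 2.51 to 2.93 in P1 to P3 and 1.27 to 1.42 in P4 to P6.

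A few members were far lower than their partners in every library, although all ribosomes need them in equal number. *Rpl26* was at 5.42, 12.2, 9.52, 4.86, 16.1 and 0.000187 FPKM, *Rpl30* at 29.0, 23.9, 25.2, 17.3, 15.9 and 21.8 FPKM and *Rpl34* at 11.9, 10.9, 8.98, 9.61, 8.92 and 8.21 FPKM. In the same table, pseudogene rows with near-identical sequence were high. *Gm15772* (like *Rpl26*) was at 830, 788, 714, 683, 620 and 608 FPKM, *Gm12191* (like *Rpl30*) at 636, 602, 509, 460, 416 and 372 FPKM, and *Rpl34-ps1* at 649, 620, 572, 532, 488 and 372 FPKM. Each of these 3 pseudogene rows was in the order P1 to P6.

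Reads of these genes cannot be assigned to the gene or its copy with certainty. When each pair was summed, the log2 differences for P4 and P5 against P1 to P3 were -0.25, -0.42 and -0.27, and for P6 against P1 to P3 -0.37, -0.63 and -0.72. The sums were thus within the range of the other members, and the row of *Rpl26* alone had gone the other way, with 0.21 (-0.33 after division by *Gapdh*). *Rps27* was at 86.3, 50.9, 29.5, 54.0, 28.0 and 3.90 FPKM, about 28.6 estimated reads in P6, and 98.5% of its windows of 76 nt occur in other annotated genes, none of which is in the table. Its difference of -3.80 in P6 is therefore uncertain. *Rps15a*, at 35.9 FPKM in P1 and 17.6 FPKM in P6, also had copies in the table. In all, 76 of the 78 members share at least 1 such window with another gene, and 37 share more than 50%. The 9 members sharing at most 10% had medians of -0.31 in P4 and P5 and -0.40 in P6, both against P1 to P3. In P6 against P4 and P5 their median was -0.08, nearer to 0 than the -0.20 of all members.

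**Figure D5:**
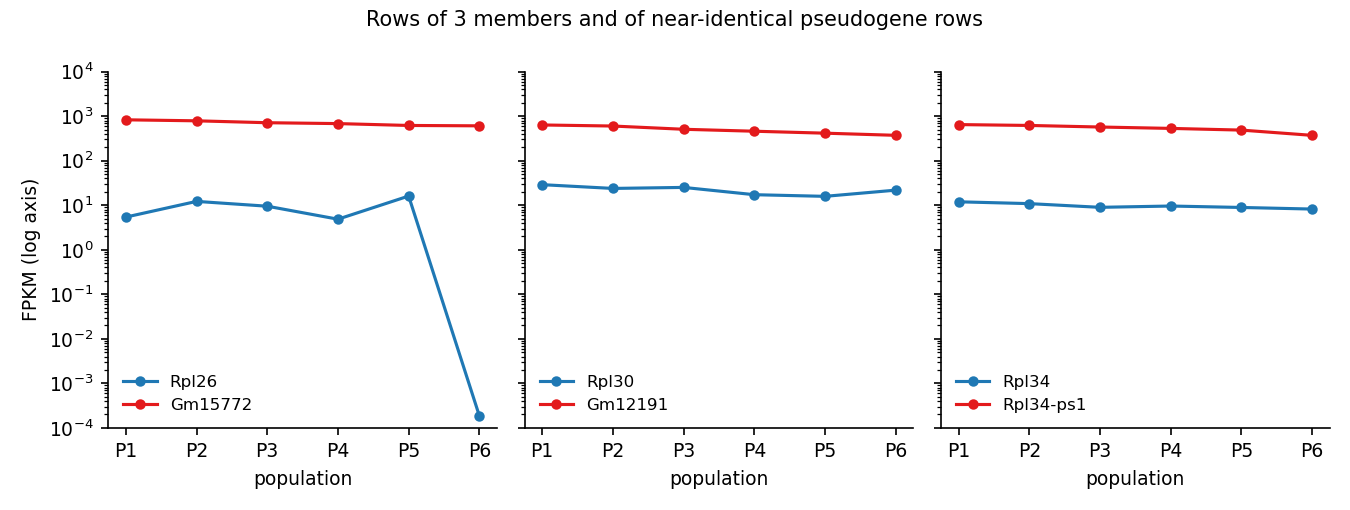
FPKM (log axis) of *Rpl26*, *Rpl30* and *Rpl34* (blue) and of the pseudogene rows *Gm15772*, *Gm12191* and *Rpl34-ps1* (red) in P1 to P6, 1 library per point. The pseudogene rows lie between 372 and 830 FPKM and go down from P1 to P6, while the members' own rows are at or below 29.0 FPKM.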

How the data were processed

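RNA-seq was measured in 6 sorted omental populations (P1 to P6), 1 library each (NEBNext Ultra, single-end reads of 76 nt). The authors deposited FPKM values per gene. The submitters' processing notes name TopHat2 2.0.7, Cufflinks 2.1.1 and mm10, and the annotation is not given in the sources used here. Rows that shared a symbol (495 repeats in 23847 rows) were summed. Log2 differences used FPKM + 0.1, with means over populations taken before the logarithm. The background was the 12053 genes with a mean of at least 1 FPKM, and 1.2 times was the fold for a count. With 1 library per population no test was run. Depth was estimated from the steps of low FPKM values, with a fragment length of 200 nt assumed, and only 53.9% to 59.1% of low values came within 0.05 of whole reads, so no counts were used. Windows of 76 nt were compared with GENCODE M21 transcripts, and start regions came from RefSeq. The members, lists and comparisons were chosen with earlier results of these data known. Genes were named by rank of mean, of log2 difference and of distance from the median profile, with paralogs, stalk and 5S partners and up to 5 abundant genes per list. Genes named outside that rule, chosen after their values were seen, were *Rpl7*, *Rpl13*, *Rpl28*, *Rpl35*, *Rps26*, *Gm15772*, *Gm12191*, *Rpl34-ps1*, *Eng*, *Pdgfra*, *Aldh1a2*, *Mycn*, *Nop58*, *Npm1*, *Pabpc1* and *Try4*. Some members and 1 alternative are not reported here by name. Alternatives covered scaling, pseudocount, fold, repeated symbols, paralogs, low members and single populations. Python 3.11.15, numpy 2.4.6, pandas 2.3.3 and matplotlib 3.10.9 were used, and the procedure was tested on simulated data.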

Additional observations from a re-analysis of the deposited data

Results flagged for a closer look

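In 4 members the CD105 contrast had opposite signs at the 2 ALDH levels, a difference that was not tested because each population had 1 library. *Rpl10* was at -0.15 (log2, P4 over P2) and 0.0216 (P5 over P3). *Rpl26* was at -1.31 and 0.75, in a row that shares 46.8% of its windows with *Gm15772*. *Rpl38* was at 0.0933 and -0.049. *Rps27* was at 0.0837 and -0.0744, in a row that shares nearly all windows with other genes. The other 74 members had the same sign in both pairs.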

How the results depend on the processing

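With no replicates, a median was counted as kept when it moved by at most 0.1 log2 units, a share by at most 0.5 percentage points and a count within 1.5 times. Division by *Gapdh* moved the medians to -0.76 (P4 over P2), -0.76 (P5 over P3), -0.82 (P4 and P5 over P1 to P3), -0.80 (P6 over P1 to P3), 0.0101 (P6 over P4 and P5) and 0.22 (P4 over P5), the counts lower by 1.2 times to 76 (P5 over P3), 77 (P4 and P5 over P1 to P3) and 9 (P6 over P4 and P5), the members lowest in P6 to 19, and *Rps27l* in P4 and P5 over P1 to P3 to -0.25. The median of ratios gave -0.43 and -0.62 for the medians of P4 and P5 and of P6 over P1 to P3, and 50 members lower in P5 over P3. Quantile normalization gave medians of -0.16, -0.28 and 0.00706 (P4 and P5 over P1 to P3, P6 over P1 to P3, P4 over P5). The counts, out of 78 members, were 25 (P4 over P2) and 11 (P5 over P3). They were 16 for P4 and P5 over P1 to P3 and 42 for P6 over P1 to P3. The 11 were a smaller share than the 18.5% of the background as deposited, and the 16 were near its 17.5%. The 25 and the 42 were above its 16.6% and 24.5%. Background shares after quantile normalization and at folds of 1.1 and 1.5 are not given here. These counts therefore cannot be set against all genes at the same setting. The shares of the summed FPKM were 10.6%, 10.8%, 9.44% and 8.82% in P1, P2, P5 and P6. A common sum of FPKM left 19 members lower in P6 over P4 and P5, and removal of the acinar and mesothelial lists, an alternative chosen after seeing the data, left 17. At a fold of 1.1, 62 (P5 over P3) and 51 (P6 over P4 and P5) members were lower, and at 1.5 these counts were 2 and 6, with 1 for P4 over P2, 2 for P4 and P5 over P1 to P3 and 26 for P6 over P1 to P3. An alternative that added ribosomal proteins outside the name rule is not reported here. Without 1 population at a time, the medians ran from -0.37 to -0.24 (P4 and P5 over P1 to P3), -0.56 to -0.46 (P6 over P1 to P3) and -0.26 to -0.15 (P6 over P4 and P5), and the counts from 33 to 62, 65 to 72 and 21 to 37. The cause of these shifts was not tested. The medians of P4 over P2, P5 over P3, P4 and P5 over P1 to P3 and P6 over P1 to P3 were below 0 under every alternative run. No paired analysis was possible because no population had a second library.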
